A study of Mus musculus with 13 samples.

Results

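The regions described here are H3K27ac peaks of mouse embryonic fibroblasts (MEFs) that were found neither in embryonic stem cells (ESCs) nor at any sampled day of reprogramming. A region was taken from the MEF peak list if its interval shared no base with an ESC H3K27ac interval and none with the 6 H3K27ac lists of reprogramming cultures. This rule gave 11879 regions out of 26591 MEF peaks, and they are called lost regions below. They were chosen by their absence from those lists, so that absence is a description and not a result. The reprogramming cultures were MEFs given OCT4, SOX2, KLF4 and c-MYC (OSKM), sampled at days 5, 9 and 13, and they also received a plasmid with either HDAC3-YF, an HDAC3 mutant that cannot deacetylate histones, or a FLAG control. MEFs and OSKM cultures were of the strain C57BL/6J-OG2 and ESCs of C57BL/6J, so ESCs differ from the others in strain as well as in cell type. The OSKM cells are labelled as presumed intermediates, no selection of cells is given in the labels, and the untreated MEFs and ESCs received no plasmid. NCoR and SMRT, the nuclear receptor co-repressors that bind and activate HDAC3, were also mapped by chromatin immunoprecipitation, in day 9 cultures given OSKM without either plasmid and in ESCs. Each group had 1 library, so no value has a spread between cultures and no test between conditions was made.

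Acetylation of lysine 27 on histone H3 marks active promoters and enhancers. Promoters of widely used genes carry it in many cell types, whereas distal enhancers are largely particular to a cell type. Fibroblasts rely on enhancers at matrix, contractile and growth factor genes, bound by factors such as AP-1, TEAD and RUNX, and these enhancers are known to be taken out of use early in reprogramming. In whole cultures, fewer cells that carry a mark and less of the mark in each cell cannot be told apart.

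MicroRNAs, small RNAs that hold back the translation of their targets, are shown first, because at some hairpins every MEF peak of the neighbourhood was a lost region. Of 1005 mouse hairpins in RefSeq (GRCm38.p6, the coordinates of mm10), 604 had a MEF peak within 20 kb, and 274 of these (45.4%) had a lost region there. This was close to the 42.1% of the 15013 protein-coding genes with a MEF peak in the body plus 20 kb. Of those genes, 76 had 3 or more MEF peaks that were all lost regions and no OSKM peak. At 27 hairpins there were 3 or more lost regions, and at 7 of the 27 every MEF peak in the window was a lost region and no OSKM list had a peak. The mature RNAs given here are written 5′ to 3′ with the seed, bases 2 to 8, in capitals. The first 3 belong to one locus on chromosome 9, whose hairpins are among those 7.
miR-100-5p: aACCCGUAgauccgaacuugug
let-7a-2-3p: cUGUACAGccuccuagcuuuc
miR-125b-5p: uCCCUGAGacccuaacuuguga
miR-21a-5p: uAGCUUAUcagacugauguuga
miR-10a-5p: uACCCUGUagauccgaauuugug
miR-29a-3p: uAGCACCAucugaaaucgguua
miR-29b-3p: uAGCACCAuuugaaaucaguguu
miR-132-3p: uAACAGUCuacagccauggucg
miR-212-3p: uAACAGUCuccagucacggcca
In this set miR-29a and miR-29b share the seed AGCACCA, and miR-132 and miR-212 share the seed AACAGUC. The hairpins of each pair are neighbours, on chromosomes 6 and 11.

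The miR-100 and let-7a-2 hairpins, at chr9:41531425-41531504 and chr9:41536716-41536811 on the plus strand, sat inside a run of 7 lost regions spanning chr9:41509572-41556871. The let-7 family promotes differentiation and opposes the pluripotent state. The RNA printed above is from the 3p arm of the let-7a-2 hairpin, and its seed is not given as that of the family. The 5p arm of this hairpin is not shown. The window of 20 kb on each side of Mirlet7a-2 held 6 MEF peaks and that of Mir100 held 5, all of them lost regions. These windows overlap and share peaks, so they are not separate cases. With HDAC3-YF both windows had 0 peaks at days 5, 9 and 13, and with FLAG they also had 0 at all 3 days. Mir125b-1, further along at chr9:41581926-41582002, had 3 MEF peaks in its window, again all lost regions with 0 peaks in every OSKM and ESC list. None of the 3 windows held a called H3K27ac peak outside MEFs. Co-repressor peaks were not counted in these windows.

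Other microRNA loci had lost regions beside MEF peaks that were not lost regions. The window of Mir21a, a microRNA abundant in fibroblasts and linked to fibrosis, held 9 MEF peaks, of which 5 were lost regions. It had 4, 3 and 2 peaks with HDAC3-YF at days 5, 9 and 13, against 4, 7 and 2 with FLAG. Mir10a, in the Hoxb cluster, had 4 lost regions among 7 MEF peaks, with 2, 1 and 2 peaks for HDAC3-YF and 5, 3 and 5 for FLAG. Mir29a, a repressor of collagen genes, had 3 among 4 MEF peaks, with 3, 2 and 0 peaks for HDAC3-YF and 1, 3 and 2 for FLAG. Mir132 and Mir212 shared 1 window count of 3 among 6, with 2 peaks at each day for HDAC3-YF and 1, 3 and 2 for FLAG. The OSKM peaks counted in these windows need not be the MEF peaks.

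How much of the MEF-only landscape was lost depended on the weak peaks. Of the 17062 MEF peaks without an ESC peak, 69.6% (95% Wilson interval 68.9 to 70.3%) were absent from all 6 OSKM lists. The share was 44.7% for the top 50% of the MEF list by score and 45.6% when every H3K27ac list was limited to its 14251 highest-scoring peaks. Of the 9529 MEF peaks that overlapped an ESC peak, 535 (5.61%) were absent from all 6, and over all MEF peaks the share was 46.7%. Only 444 MEF-only regions were found in all 6 lists, whereas 5109 of the regions shared with ESCs were. All intervals given here treat regions as independent and cover counting error only.

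**Figure D1:**
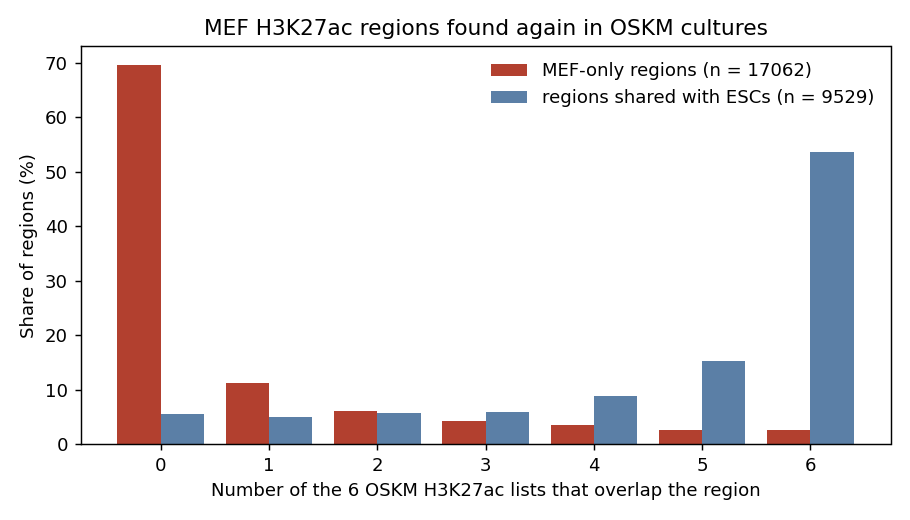
The horizontal axis gives how many of the 6 OSKM H3K27ac lists overlapped a MEF region, and the bars give the share of regions in percent, for MEF-only regions and for regions shared with ESCs. MEF-only regions pile up at 0 lists (69.6%) and shared regions at 6 lists (53.6%).

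Absence at day 5 was not final for every region. Of the MEF-only regions, 14001 (82.1%) were missing from both day 5 lists. Of these, 11879 (84.8%) were still missing at days 9 and 13 and are the lost regions, and 2122 (15.2%) were found again later. Among the regions found again, 608 were in the day 9 HDAC3-YF list and 961 in the day 9 FLAG list, and 545 were in the day 13 HDAC3-YF list and 980 in the day 13 FLAG list. Absence at day 5 alone would thus have included regions that were called later.

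The libraries behind the rule differed in length and strength. The OSKM lists held 14251 to 16944 peaks, fewer than the 26591 of MEFs, and most MEF peaks were absent from each of them. The absent share was 64.4% with HDAC3-YF and 63.4% with FLAG at day 5. It was 63.7% with HDAC3-YF and 60.1% with FLAG at day 9, and 66.1% with HDAC3-YF and 63.9% with FLAG at day 13. The share of peaks at the highest deposited score, 200, was 25.9% in MEFs, 9.06% to 11.9% at days 5 and 9, and 2.11% with HDAC3-YF and 1.67% with FLAG at day 13. Read depth is unknown. Fibroblast markers were acetylated in the MEF list, with 12 peaks at Fbn1, 7 each at Col1a1 and Prrx1, 3 at Pdgfrb and 1 at Fn1 in the gene body and 20 kb on each side. Markers of pluripotent cells were at 0 for Esrrb and Zfp42, 1 for Nanog and 6 for Pou5f1, whose window is gene dense. Muscle markers Myod1, Myf5 and Myog were at 0. Other lineages were not absent: of the epithelial markers Epcam was at 0 and Cdh1 and Krt8 had 2 peaks each, and the glial marker Sox10 had 1. Of the endothelial markers Tek was at 0, Pecam1 had 5, Kdr had 3 and Cdh5 had 2, and of the macrophage markers Spi1 had 5, Csf1r had 3 and Ptprc had 1.

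Lost regions were weak peaks. The deposited score, the authors' own value on an unstated scale, had a median of 14.5 in the lost regions (quartiles 8.84 and 30.4) and of 51.5 in the 5183 MEF-only regions kept in at least 1 OSKM list (17.0 and 172). A score under 20 was held by 62.7% of the lost regions and 28.4% of the kept ones. The ceiling score of 200 was reached by 2.16% (1.92 to 2.44%) of the lost and 22.0% (20.9 to 23.2%) of the kept regions. The median score of MEF-only regions climbed with the number of OSKM lists that held them, and was 24.8 for regions in 1 list and 200 for regions in all 6.

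Weak peaks were lost more often in every class, but at like scores MEF-only regions were lost more often than regions shared with ESCs. At scores under 10, 85.6% (84.6 to 86.7%) of the MEF-only regions were lost, against 39.6% (34.7 to 44.7%) of the shared regions. At scores of 50 to 100 the shares were 56.1% (53.8 to 58.4%) and 5.07% (3.83 to 6.68%). At the ceiling of 200 they were 18.4% (16.4 to 20.5%) and 0.383% (0.250 to 0.584%). Peaks at this ceiling may differ in strength, so shares at 200, here and below, need not compare regions of like strength. Absence and ESC overlap are both part of the rule, so these shares describe the classes and test nothing.

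**Figure D2:**
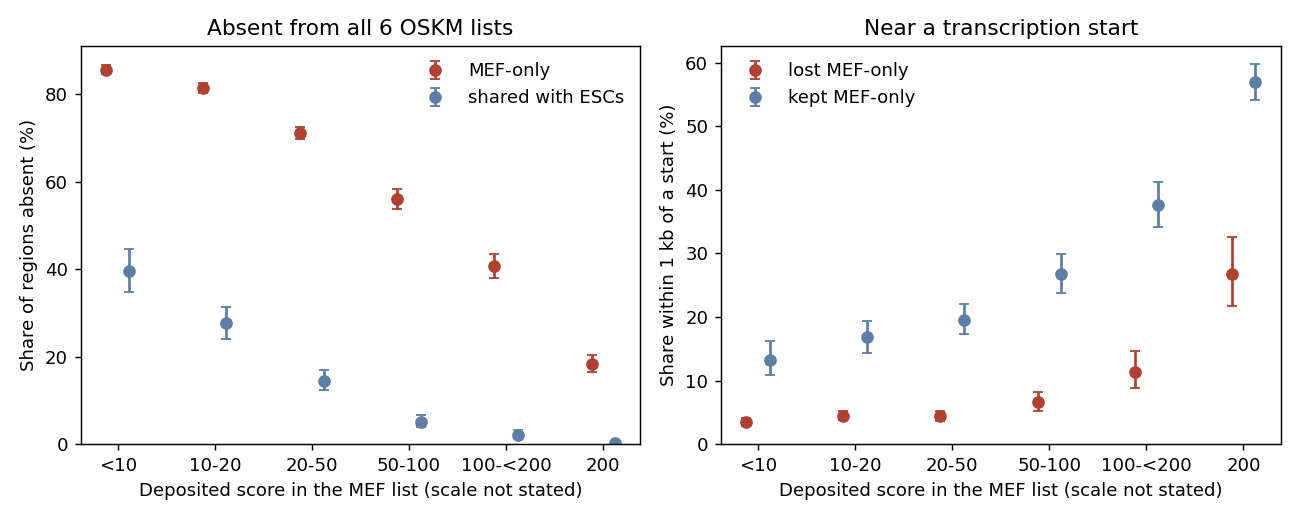
Points are shares in percent by class of the deposited MEF score, with 95% Wilson intervals. On the left, MEF-only regions are absent from all 6 OSKM lists more often than regions shared with ESCs in each class, from 85.6% against 39.6% at scores under 10 to 18.4% against 0.383% at 200; on the right, fewer lost than kept MEF-only regions lie within 1 kb of a transcription start in each class.

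Lost regions lay mainly away from promoters. Within 1 kb of the annotated transcription start of a protein-coding gene lay 5.06% (4.68 to 5.47%) of the lost regions, 30.1% (28.8 to 31.3%) of the kept MEF-only regions and 32.5% of all MEF peaks. The median distance to a start was 49694 bp for lost and 16930 bp for kept regions. Gene bodies more than 1 kb from a start held 52.3% of the lost regions, and 42.7% lay outside gene bodies and as far from a start, against 43.4% and 26.5% of the kept regions. The position also differed at like score. At scores under 10 the share near a start was 3.43% (2.89 to 4.06%) for lost and 13.3% (10.9 to 16.2%) for kept regions, and at 200 it was 26.8% (21.8 to 32.6%) and 57.0% (54.1 to 59.8%).

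**Figure D3:**
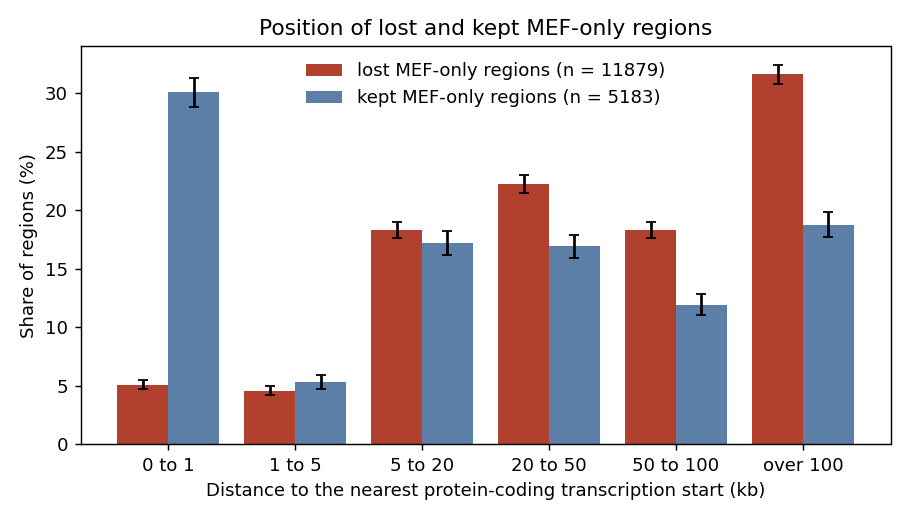
Bars give the share of lost and of kept MEF-only regions, in percent with 95% Wilson intervals, by distance to the nearest protein-coding transcription start in kb. Within 1 kb lie 5.06% of the lost and 30.1% of the kept regions, and beyond 100 kb lie 31.6% and 18.7%.

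Distances from the lost regions to the nearest called OSKM peak varied widely. Of the lost regions, 12.6% (12.1 to 13.2%) had an OSKM peak centre within 1 kb of their own centre, 12.7% at 1 to 5 kb, 31.4% at 5 to 20 kb, 32.5% at 20 to 100 kb and 10.7% farther away. Since all deposited intervals are 200 bp wide, an interval that moves by its own width counts as absent. Just inside the rule, 330 lost regions lay under 50 bp from an OSKM interval, with a median score of 43.4, and just outside it, 474 kept regions overlapped by under 50 bp, with a median score of 34.7. The lost regions within 1 kb of an OSKM peak differed from the others. They had a median score of 34.2, against 12.1 to 14.3 in the farther classes, and 17.4% (15.6 to 19.4%) lay near a start, against 3.11% to 3.70%. An ESC peak lay within 1 kb of 27.4% of them and of 0.788% of the lost regions more than 100 kb from an OSKM peak.

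Around the lost regions, the lists of both arms held peaks at every day. A peak within 1 kb was present at 538 lost regions with HDAC3-YF and 497 with FLAG at day 5. At day 9 there were 586 with HDAC3-YF and 727 with FLAG, and at day 13 there were 394 with HDAC3-YF and 615 with FLAG. The HDAC3-YF list was longer than the FLAG list at day 5 and shorter at days 9 and 13, so list length moved with these counts, and its part was not tested. With 1 library per arm and day, the mutant and the culture cannot be told apart.

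NCoR and SMRT were rarely found at the lost regions. A day 9 co-repressor peak lay within 1 kb of 118 lost regions (0.993%, 0.830 to 1.19%), against 12.2% (11.3 to 13.1%) of the kept MEF-only regions and 44.4% of the shared regions that were kept. By co-repressor, NCoR lay near 98 lost regions and SMRT near 80. At scores under 10 the shares were 0.505% (0.324 to 0.788%) for lost and 3.81% (2.57 to 5.61%) for kept regions, and at 200 they were 9.34% (6.36 to 13.5%) and 35.8% (33.1 to 38.7%). ESC co-repressor peaks lay near 0.867% of the lost and 7.33% of the kept regions. The day 9 peaks describe a time when the lost regions had no called acetylation, and binding in MEFs was not analysed here.

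Lost regions were spread over the genome, with some local runs. By chromosome, the lost share of MEF-only regions ranged from 59.7% on chromosome 19 to 75.1% on chromosome 18, leaving out chromosome Y with 1 region. When lost regions within 12.5 kb of each other were joined, 7578 stood alone and 1767 fell into 499 runs of 3 or more. There were 59 runs of 5 or more, and 23 of these held no other H3K27ac peak of MEFs, ESCs or OSKM cultures. The longest runs of all had 9 lost regions, over Vmp1 with Mir21a and near Pdhx, and were interspersed with other peaks. The 2 longest of the 23 had 8 lost regions each, one over Dkk3 (chr7:112122141-112165040) and one over Ddah1 (chr3:145795784-145847683), which encodes an enzyme that degrades an inhibitor of nitric oxide synthesis. Besides the run on chromosome 9, runs of 7 without other peaks lay 11019 bp from Col6a2, with a median score of 49.4, and 16830 bp from Thbs2. Further runs of 5 without any other H3K27ac peak lay over the matrix gene Tnc, over Igfbp7, Ror2 and Cald1, and 34208 bp from Fstl1. Runs that were not free of other peaks included 6 lost regions over Col1a1 and 7 over Foxc2 and Foxl1. The runs were joined and named after their values were seen.

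By gene, 15013 of 21887 protein-coding genes had a MEF peak in the gene body or within 20 kb of it, and 6323 of these (42.1%) had a lost region. At 1197 genes (7.97%) every MEF peak in the window was a lost region, and 578 of those had no peak in any OSKM list. Windows of neighbouring genes overlap, and a peak in a window can belong to another gene. Longer windows offer more room for peaks.

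Most genes with the highest counts also had MEF peaks that were not lost regions. Dnm3, encoding a dynamin, had 24 lost regions among 32 MEF peaks and the largest count, with 8, 5 and 1 peaks for HDAC3-YF at days 5, 9 and 13 and 9, 11 and 3 for FLAG. Lpp, a focal adhesion protein, had 22 among 26, with 8, 4 and 2 peaks for HDAC3-YF and 2, 8 and 4 for FLAG. The forkhead factor gene Foxp1 had 21 among 26, with 11, 9 and 5 peaks for HDAC3-YF and 15, 15 and 7 for FLAG. All 3 loci had fewer peaks in every OSKM list than in MEFs. Their choice by lost regions and the shorter OSKM lists both favour this, so it is a description and not a result. Adam12, a metalloprotease of mesenchymal cells, had 15 among 18, and its window held 1 peak at each day with HDAC3-YF and 2, 1 and 1 with FLAG. The zinc finger gene Glis3 had 16 among 17, and Cacna1c, the pore subunit of a calcium channel, 15 among 16. The others of the 12 highest counts were Stard13 with 17 lost regions, Atxn1 with 16, and Aopep, Pakap and Ctif with 15 each, besides Rbms3.

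At some genes the MEF peaks were gone entirely. Rbms3, encoding an RNA-binding protein, had 16 MEF peaks, all lost regions, with 0 peaks for HDAC3-YF at all 3 days and 2, 1 and 0 for FLAG. Dkk3, a secreted protein of the Dickkopf family, had 8 MEF peaks, and the flippase gene Atp8b4 had 8 and Ankrd55 had 7. These 3 genes had 0 peaks in all OSKM lists and in ESCs. Fgfr2, a receptor for fibroblast growth factors, had 8 MEF peaks and 1 OSKM peak, at day 5 with HDAC3-YF. Ebf1, a transcription factor of B cells and mesenchymal cells, had 7 MEF peaks and 1 OSKM peak, at day 5 with FLAG, and 6 ESC peaks at other positions. Fam110a shows the limit of the measure, because its 7 MEF peaks were all lost regions while its window held 1, 3 and 4 peaks with HDAC3-YF and 1, 1 and 2 with FLAG. The remaining 3 of these 10 genes were Slc14a2 and Susd1 with 10 MEF peaks each and Pde10a with 8.

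**Figure D4:**
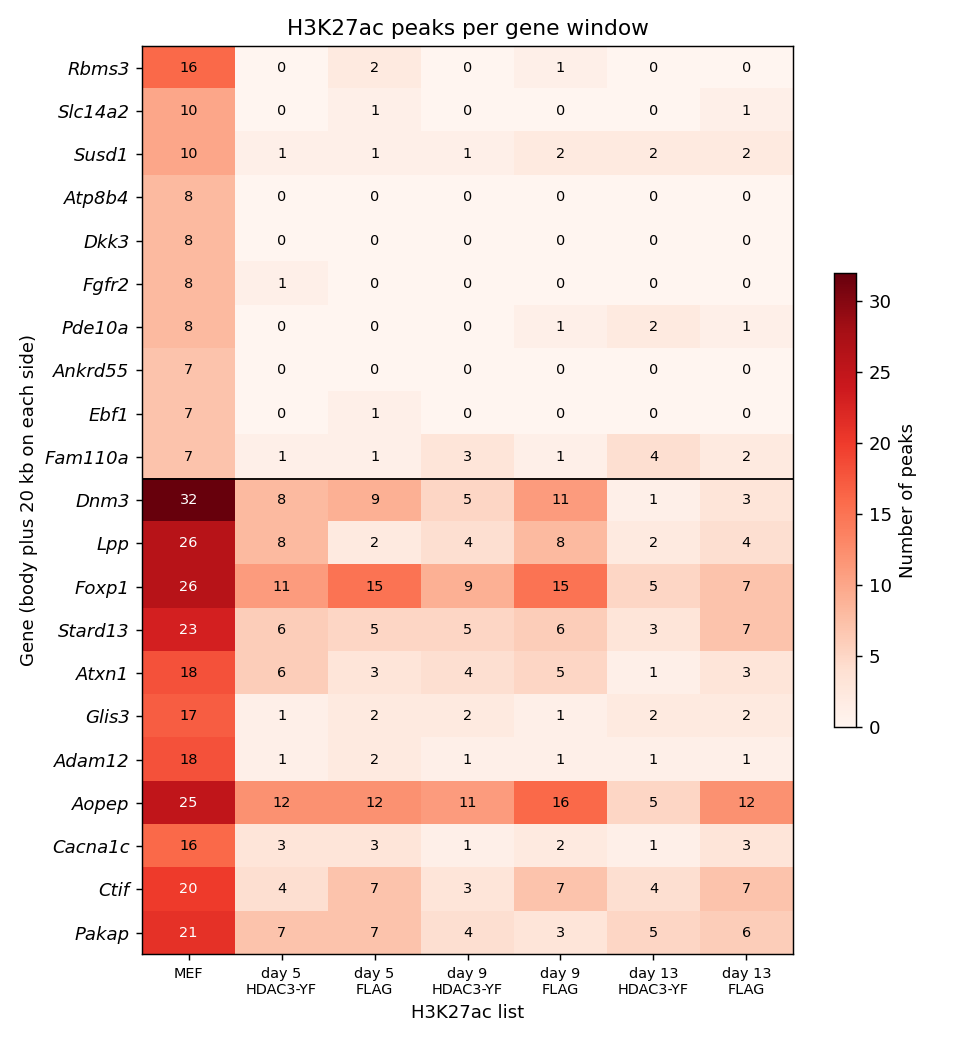
Each cell counts the H3K27ac peaks over a gene or within 20 kb of its ends, for MEFs and the 6 OSKM lists. Above the line are the 10 genes with the most MEF peaks among those whose MEF peaks were all lost regions, and below it the other 11 genes with the most lost regions. Dkk3, Atp8b4 and Ankrd55 are at 0 in every OSKM list, and Dnm3 has 32 peaks in MEFs and 1 to 11 in OSKM lists.

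The gene lists give the functional picture. In the windows of all protein-coding genes, 38.8% of the MEF peaks were lost regions, and 65.9% of the MEF-only peaks. For extracellular matrix genes the shares were 66.9% (107 of 160 MEF peaks, 59.3 to 73.7%) and 75.4%, for growth factors and receptors 65.6% (84 of 128) and 77.1%, and for TGF-beta and BMP signalling 63.3% (88 of 139) and 75.9%. AP-1 genes were at the other end, with 19.4% (6 of 31, 9.19 to 36.3%) and 27.3%. Pluripotency genes had 23.8% (5 of 21) and 41.7%. Housekeeping genes had 23.7% (9 of 38) of all MEF peaks but 64.3% of the MEF-only peaks, close to the 65.9% of all gene windows. The lists differed in peak strength too. The median MEF score was 33.6 for matrix genes, 19.1 for growth factors, 35.6 for TGF-beta genes, 175 for housekeeping genes and 200 for AP-1 genes, and the part of strength in the list shares was not tested.

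**Figure D5:**
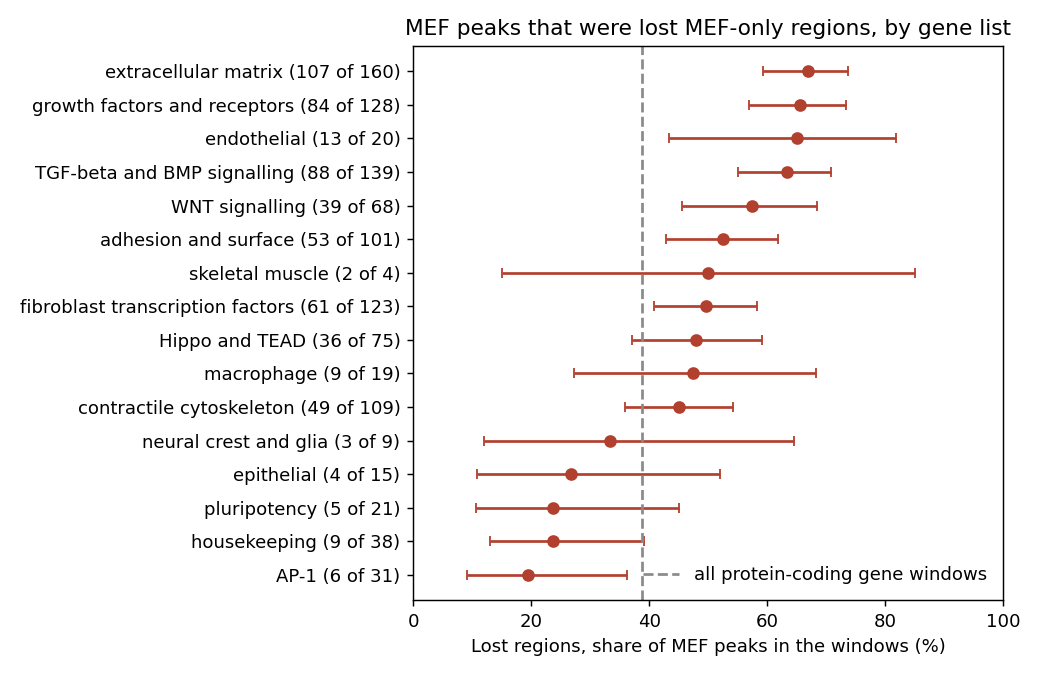
Points give the lost regions as a share of the MEF peaks in the windows of each gene list, in percent with 95% Wilson intervals, and the dashed line marks 38.8%, the share over all protein-coding gene windows. Matrix, growth factor and TGF-beta lists lie right of the line (66.9%, 65.6% and 63.3%) and AP-1 genes left of it (19.4%).

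Among matrix genes, 35 of 42 had a lost region, and at 10 every MEF peak was one. The median was 2 lost regions a gene over the list, against 0 over all genes with a MEF peak. Fbn1, encoding the microfibril protein fibrillin, had 9 lost regions among 12 MEF peaks, with 7, 2 and 1 peaks for HDAC3-YF at days 5, 9 and 13 and 4, 5 and 2 for FLAG. The basement membrane collagen gene Col4a2 had 8 among 11, with 2, 3 and 1 peaks for HDAC3-YF and 2, 5 and 5 for FLAG. Timp2, an inhibitor of matrix proteases, had 6 among 10, and the fibulin gene Fbln2 6 among 9. The windows of these 4 genes held at least 1 peak in every OSKM list. At 5 matrix genes all MEF peaks were lost regions and no OSKM list had a peak, namely tenascin C (Tnc) and biglycan (Bgn) with 4 MEF peaks each, decorin (Dcn) with 3, and periostin (Postn) and Col11a1 with 1 each. Over the whole list the OSKM lists held 53, 41 and 33 peaks with HDAC3-YF and 49, 59 and 53 with FLAG, where MEFs had 160. HDAC3-YF was thus above FLAG at day 5 and below it at days 9 and 13, as were the lengths of the whole lists.

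Ligands and receptors of growth factor pathways had lost regions at 28 of 32 genes, and at 8 every MEF peak was one. Igf1r, the receptor of insulin-like growth factors, had 13 among 18 MEF peaks, with 5, 5 and 2 peaks for HDAC3-YF and 6, 9 and 4 for FLAG. Nrg1, a ligand of ERBB receptors, had 7 among 8, and Igfbp7, a secreted binding protein, 6 among 8. The chemokine gene Ccl2 had 6 MEF peaks, all lost regions, with 2, 2 and 0 peaks at other positions for HDAC3-YF and 2 at each day for FLAG. At 6 genes no OSKM list had a peak, namely Fgf7 with 5 MEF peaks, the PDGF receptor gene Pdgfrb with 3, Hgf and Cxcl12 with 2 each, and Igf1 and Igf2 with 1 each. FGF7 and HGF are signals that mesenchymal cells send to neighbouring epithelia.

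TGF-beta and BMP genes had a lost region at 24 of 28. Ltbp1 and Ltbp2 encode proteins that hold latent TGF-beta in the matrix, and had 13 among 16 and 9 among 11 MEF peaks. The co-receptor gene Tgfbr3 had 10 among 13, with 0, 2 and 1 peaks for HDAC3-YF and 2, 3 and 2 for FLAG. Smad3, which carries the signal to the nucleus, had 8 among 15, and its window held 4, 5 and 4 peaks with HDAC3-YF and 2, 6 and 4 with FLAG. The family was not uniform, since none of the 5 MEF peaks of Ltbp3 was a lost region. The ligand gene Bmp4, with 1 MEF peak that was a lost region, had no peak in any OSKM list.

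The other fibroblast lists lay nearer to all gene windows on both shares. For WNT signalling 57.4% of the MEF peaks (39 of 68) and 65.0% of the MEF-only peaks were lost regions, with Dkk3 and the receptor gene Ror2 (6 among 9 MEF peaks) in front, followed by the nuclear effectors Tcf7l2 (5 among 9) and Tcf7l1 (3 among 8). For adhesion and surface genes the shares were 52.5% (53 of 101) and 67.9%, with 8 among 12 at Ncam1, 6 among 9 at the collagen receptor gene Ddr2, 5 among 7 at Cd44 and 4 among 12 at the integrin gene Itgb5. Contractile and cytoskeletal genes had 45.0% (49 of 109) and 58.3%, with Palld at 13 among 18, Cald1 at 9 among 14, Myh9 at 5 among 11 and Lmod1 at 5 among 7. Hippo and TEAD genes had 48.0% (36 of 75) and 65.5%, above all Tead1 with 12 among 17, while Amotl1 had 4 among 6 and Lats2 and Wwtr1 3 among 6 each. The intervals of these last 2 lists included the 38.8% of all gene windows, and of the MEF-only peaks 65.9% were lost over all windows.

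Transcription factors of fibroblasts had lost regions at 21 of 37 genes, 49.6% of their MEF peaks (61 of 123) and 63.5% of their MEF-only peaks. Over all gene windows these shares were 38.8% and 65.9%, so the MEF-only share of this list was close to that of all windows. It was also close to the 64.3% of housekeeping genes. Runx2, a factor of bone and fibroblasts, had 8 among 11 MEF peaks, Runx1 had 6 among 12, Foxc2 had 6 among 7 and the homeobox gene Prrx2 had 5 among 8. The Runx1 window held 6, 4 and 4 peaks with HDAC3-YF and 5, 5 and 6 with FLAG. At Twist1, a driver of the mesenchymal state, none of the 3 MEF peaks was a lost region. Among AP-1 genes only Fosl1 and Fosl2 had lost regions, 3 among 7 and 3 among 4, and the list held 31 peaks in MEFs, 24, 24 and 26 with HDAC3-YF and 24, 26 and 23 with FLAG.

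Marker lists of other lineages show what else the MEF list held. Endothelial genes, 8 of 10 with a peak and Tek and Sox17 at 0, had 20 MEF peaks, of which 13 (65.0%, 43.3 to 81.9%) were lost regions. Of their MEF-only peaks 68.4% were lost regions, close to the 65.9% of all gene windows. The VEGF receptor gene Kdr had 3 MEF peaks and Cdh5, a cadherin of vessel walls, had 2, and these and Tie1 and Emcn were without a peak in every OSKM list. Flt1 and Vwf had 2 lost regions among 3 each. Pecam1 had only 1 among 5, with 1, 0 and 1 peaks for HDAC3-YF and 2, 4 and 2 for FLAG. The 1 MEF peak of Sox18 was not a lost region, and its window held a peak in every OSKM list. The endothelial list held 6, 3 and 7 peaks with HDAC3-YF and 7, 10 and 4 with FLAG, and Tek, without a MEF peak, had 1 to 4 in the OSKM lists. Macrophage genes, 6 of 9 with a peak and Adgre1, Itgam and Lyz2 at 0, had 9 lost regions among 19 MEF peaks, with 3 among 5 at Spi1, 3 among 3 at Csf1r and 1 each at Cd14, Tyrobp and Ptprc, and held 8, 12 and 9 peaks with HDAC3-YF and 8, 9 and 12 with FLAG. Skeletal muscle genes had 2 among 4, both at Chrna1, epithelial genes 4 among 15, at Ap1m2, Ovol1, Cldn3 and Krt18, and neural crest and glial genes 3 among 9, at S100b and Erbb3. The intervals of the macrophage, muscle, epithelial and neural crest shares of MEF peaks included the 38.8% of all gene windows. Of the MEF-only peaks, lost regions made up 9 of 12 at macrophage genes and 3 of 4 at neural crest and glial genes. They made up 2 of 4 at muscle genes and 4 of 9 at epithelial genes, against 65.9% over all gene windows. These MEF-only peaks were few, and no interval was computed for their shares. The pluripotency list had 2 at Pou5f1 and 1 each at Klf4, Klf5 and Sox2, and the housekeeping list 2 each at Rplp0 and B2m and 1 at Gapdh, among others. Whether fewer endothelial or macrophage cells were present in OSKM cultures, and the part this had in the lost regions, was not tested.

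Few promoter windows with a MEF peak held a lost region, in part by the rule. Windows from 250 bp before to 50 bp after the start were available for 17492 of the protein-coding genes, 21263 windows in all. Of 4446 windows with a MEF peak, 256 (5.76%), at 244 genes, overlapped a lost region, and 28 of the 256 overlapped an OSKM peak at another position of the window. Another 3425 windows held only regions shared with ESCs, which the rule keeps from being lost regions. The remaining 765 held a kept MEF-only region and no lost region. In the gene lists the windows with a lost region were those of the matrix genes Postn, Thbs2 and Col8a1, the growth factor genes Hgf and Pdgfa, the contractile genes Lmod1 and Tpm2, Ltbp1, the TEAD targets Ankrd1 and Cav1, Wnt5b, Lmx1b, Kdr and Pgk1. Of the genes outside the lists, Cdkn2a, whose products arrest the cell cycle and oppose reprogramming, also had a lost region in a promoter window. Its gene body with 20 kb on each side held 2 lost regions among 4 MEF peaks, and the gene was picked out after the values were seen.

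Stretches of such regions are shown for Ltbp1 and Lmod1, the genes of the TGF-beta and contractile lists that were named by rule and whose lost region lies upstream of the start. Both are read on the plus strand from the RefSeq promoter table of GRCm38.p6, 5′ to 3′, and cover only bases inside the lost region and before the start. Capitals mark matches to the letters searched. The Ltbp1 stretch lies at chr17:75178571-75178770, 11 to 210 bp before the start, in a region with a deposited score of 119.42. The Lmod1 stretch lies at chr1:135324621-135324812, 1 to 192 bp before the start, in a region with a score of 15.25.
Ltbp1: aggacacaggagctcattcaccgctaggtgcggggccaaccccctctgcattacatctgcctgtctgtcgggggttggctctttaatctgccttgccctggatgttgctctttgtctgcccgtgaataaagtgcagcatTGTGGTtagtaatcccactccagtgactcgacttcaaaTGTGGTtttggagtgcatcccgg
Lmod1: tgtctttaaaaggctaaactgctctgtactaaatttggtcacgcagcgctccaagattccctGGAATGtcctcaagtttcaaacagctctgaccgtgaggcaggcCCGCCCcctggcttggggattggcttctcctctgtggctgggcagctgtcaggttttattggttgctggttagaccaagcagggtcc
The capitals in Ltbp1 are TGTGGT, the core letters of RUNX sites. Those in Lmod1 are GGAATG, the core of TEAD sites, and CCGCCC, the reverse of the GC box GGGCGG. Stretches of the same kind were taken for Fam110a (200 bases) and Ebf1 (74 bases), also named by rule. They held no match to the letters searched and are not printed, so the 2 shown are not typical examples.

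Across promoter windows these letters were searched on both strands. TGTGGT was in 20.3% (15.8 to 25.7%) of the 256 windows with a lost region, in 12.4% (10.3 to 14.9%) of the 765 windows with a kept MEF-only region and in 15.0% of all 21263 windows. The AP-1 letters TGANTCA were in 8.98% (6.06 to 13.1%), 5.49% (4.09 to 7.34%) and 6.99%. GGAATG was in 13.3%, 12.4% and 13.6%, and TTGCNNAA, a C/EBP core, in 8.59%, 8.50% and 10.2%. The E-box CACGTG, bound by MYC among others, was in 10.2%, 9.41% and 7.84%, and GGGCGG in 61.3%, 71.1% and 46.2%. The windows also differed in base composition, with a median of 59.3% G and C in windows with a lost region, 62.3% in those with a kept region and 56.3% in all. Matches of different letters may overlap, they describe letters only, and for most lost regions, which lie far from promoters, no sequence was analysed here.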

How the data were processed

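Per the labels' protocols, chromatin was cross-linked with formaldehyde, sonicated and precipitated with antibodies to NCoR, SMRT or H3K27ac. The submitters' processing notes name Bowtie2 2.2.0, MACS 1.4 and the build mm10, without settings or their order of use. The authors deposited 12 peak lists, 1 per library, from 13 libraries; the ESC input was not analysed here. Every interval is 200 bp wide, and no source used here says how that width was set. The score that the authors deposited for each peak has no stated scale, was used to rank or class peaks within a list and to give each list's share at the ceiling, and read depth is unknown.

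Overlaps of 1 bp were computed with bedtools 2.31.1 and distances between centres with numpy 2.4.6, tested on simulated intervals. Shares carry 95% Wilson intervals (scipy 1.17.1). Genes came from RefSeq GRCm38.p6 tables, and all 310 listed genes in 16 lists matched by symbol. Genes were named by rule: up to 4 per list with the most lost regions in the body plus 20 kb, the 12 with the most genome-wide, and the 10 with the most MEF peaks where all were lost regions; genes whose windows had no OSKM peak, promoter genes, runs and microRNAs were added after their values were seen. The regions and lists were chosen with earlier results of these data known. The planned distance to both gene ends is in the sensitivity part, and distance to transcription starts was added. Some genes that met these rules are not reported here.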

Additional observations from a re-analysis of the deposited data

How the results depend on the processing

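The regions' number and character depended on peak strength and list length. With the top 50% of the MEF list by score the rule gave 2390 regions, 44.7% of the MEF-only regions, at 2037 genes, and with the 14251 highest-scoring peaks of every H3K27ac list it gave 3181, 45.6%, at 2592 genes. In these 2 settings 29.9% and 32.0% had an OSKM peak within 1 kb, 10.8% and 8.52% had the score 200, 10.6% and 11.1% lay within 1 kb of an annotated gene end, and 2.47% and 2.55% within 1 kb of a day 9 co-repressor site. The main values were 11879 regions, 69.6%, 6323 genes, 12.6%, 2.16%, 6.50% and 0.993%. An overlap of 50% gave 67.9% of MEF-only regions, 22.3% near an OSKM peak, 3.81% at 200, 9.12% near a gene end and 1.92% near a co-repressor site. Requiring no peak centre within 1 kb gave 0% near an OSKM peak by construction, 0.813% at 200, 4.48% near a gene end and 0.327% near a co-repressor site. With the FLAG lists only, these values were 74.9%, 18.8%, 2.64%, 7.73% and 1.28%, and with the HDAC3-YF lists only 78.4%, 22.4%, 2.96%, 7.89% and 1.41%. Without the ESC condition 46.7% of the MEF peaks were absent from OSKM lists, 13.3% of them near an OSKM peak and 7.55% near a gene end. Leaving out 1 OSKM library at a time gave 70.9% to 72.4% of MEF-only regions and 14.2% to 16.0% near an OSKM peak; the share at 200 was 2.22% to 2.39%, near a gene end 6.78% to 6.95%, and near a co-repressor site 0.996% to 1.12%, with 12099 to 12351 regions and 6453 to 6577 genes. Within 2.5 kb of a gene end lay 10.2%, within 1 kb of a transcription start 5.06% (chosen after seeing the data), and 0.354% overlapped a co-repressor peak directly. Merging MEF peaks within 1 kb changed none of the 7 values by more than its interval, nor a count by over 1.5 times. Where shorter or stricter lists left fewer regions, the construction of the setting shows it; other causes were not tested. No paired analysis was possible because each arm had 1 library at each day, and days are not replicates. Unknown read depth limits all statements of absence to absence of a called peak.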
